A study of Drosophila melanogaster with 3 samples.

Results

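The X chromosome of *Drosophila melanogaster* carried 1542 of the 10553 binding peaks of the transcription factor Scalloped (14.6%) in the deposited IDR list. Every X entry of that list was taken. The irreproducible discovery rate (IDR) threshold rests on how well peak ranks match between replicates. The list it gave was the top 10553 pooled peaks by signal value, so a single peak in it need not match in each replicate. The X peaks are described here against the 6805 peaks on the autosomal arms 2L (1944), 3L (2355) and 3R (2506). Chromatin immunoprecipitation with sequencing (ChIP-seq) was performed on whole embryos of both sexes, aged 4 to 20 h, from a transgenic line that stably expresses Scalloped with eGFP at its C terminus, and the fusion protein was precipitated with an anti-GFP antibody. The 3 samples are biological replicates of this one genotype, each with its own biosample, so no treatment or mutant was compared. Whole embryos mix all tissues, so a peak does not tell in which cells the protein was bound. The lists hold peak positions and no expression values, so tissue markers could not be checked.

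Scalloped is the fly member of the TEA-domain (TEAD) family, which recognises the core sequence CATTCC. It has no strong activation domain of its own and acts through partners, chiefly Yorkie, the coactivator held back by the Hippo growth-control pathway, and Vestigial in wing and muscle. The X chromosome differs from the autosomes in that males carry 1 copy. In flies, transcription of that copy is raised by the male-specific lethal complex, which contains the noncoding RNAs roX1 and roX2 and the histone acetyltransferase Mof.

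The reference sequence at X summits shows what these peaks look like. The following windows of 121 bases are centred on the summit (dm6, plus strand, bases from the NCBI Release 6 reference) and overlap no annotated untranslated region. The first set comes from strong X peaks with the TEAD core, which is in capitals as CATTCC or, on the other strand, GGAATG.
pot intron, chrX:11915293-11915413: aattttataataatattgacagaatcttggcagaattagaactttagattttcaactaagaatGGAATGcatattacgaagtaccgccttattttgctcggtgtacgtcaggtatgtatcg
Myo10A intron, chrX:10935700-10935820: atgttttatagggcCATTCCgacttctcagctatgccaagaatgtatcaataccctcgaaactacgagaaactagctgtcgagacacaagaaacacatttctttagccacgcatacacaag
pod1 start, chrX:6805554-6805674: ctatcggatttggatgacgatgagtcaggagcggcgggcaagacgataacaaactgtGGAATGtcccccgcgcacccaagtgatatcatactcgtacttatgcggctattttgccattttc
schlank intron, chrX:6264020-6264140: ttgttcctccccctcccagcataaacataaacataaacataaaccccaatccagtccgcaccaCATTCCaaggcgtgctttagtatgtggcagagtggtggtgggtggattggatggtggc
arm start, chrX:1899776-1899896: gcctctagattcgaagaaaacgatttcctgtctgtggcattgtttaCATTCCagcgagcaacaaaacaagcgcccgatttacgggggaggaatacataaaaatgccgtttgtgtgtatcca
sd intron, chrX:15816931-15817051: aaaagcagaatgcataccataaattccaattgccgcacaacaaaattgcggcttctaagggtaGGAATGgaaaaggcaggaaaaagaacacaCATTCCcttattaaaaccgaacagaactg

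The last window is the strongest peak in scalloped itself and holds 2 cores. The second set shows that rank did not require this core: the strongest X peak, in Tlk, and the peak before CG45060 had no CATTCC within 100 bp of the summit but did have AATTCC, which differs from the core in its first base and is in capitals here on either strand. The summit in an intron of mnb and that before roX2 had neither sequence in the window shown.
Tlk intron, chrX:3742803-3742923: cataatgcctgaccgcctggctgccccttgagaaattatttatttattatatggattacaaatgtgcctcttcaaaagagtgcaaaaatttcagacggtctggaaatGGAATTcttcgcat
CG45060 start, chrX:9868813-9868933: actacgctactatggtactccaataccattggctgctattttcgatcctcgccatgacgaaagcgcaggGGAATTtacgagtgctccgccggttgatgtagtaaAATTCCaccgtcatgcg
mnb intron, chrX:17880377-17880497: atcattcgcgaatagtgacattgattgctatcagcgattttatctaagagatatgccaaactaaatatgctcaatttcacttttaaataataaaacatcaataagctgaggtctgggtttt
roX2 start, chrX:11578961-11579081: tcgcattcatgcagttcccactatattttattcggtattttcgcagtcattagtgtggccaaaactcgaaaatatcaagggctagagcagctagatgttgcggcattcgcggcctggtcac

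The third set shows the simple repeats that were more frequent at X summits than at autosomal summits, with runs of GAGAGAGA or CACACACA on either strand in capitals.
Imp start, chrX:10815669-10815789: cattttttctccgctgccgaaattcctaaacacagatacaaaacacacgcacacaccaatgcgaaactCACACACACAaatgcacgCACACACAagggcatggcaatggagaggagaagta
oc start, chrX:8650906-8651026: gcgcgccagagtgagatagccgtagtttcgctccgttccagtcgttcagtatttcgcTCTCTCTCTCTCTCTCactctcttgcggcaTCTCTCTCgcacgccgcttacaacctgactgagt
fne start, chrX:12938267-12938387: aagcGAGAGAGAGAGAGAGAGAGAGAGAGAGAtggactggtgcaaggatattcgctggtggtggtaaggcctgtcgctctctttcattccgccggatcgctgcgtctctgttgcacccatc

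Scalloped peaks were sparser on X than on the autosomal arms. The IDR list held 65.5 peaks per Mb on X, against 82.7 on 2L, 83.8 on 3L and 78.1 on 3R, so that the density on X was 0.806 times the 81.3 peaks per Mb of the 3 arms together. In the 10553 strongest peaks of each replicate, X held 64.7, 65.9 and 64.5 peaks per Mb in replicates 1, 2 and 3, against 81.6, 82.0 and 81.8 in the same replicates on the 3 autosomal arms together. The replicates did not overlap between the chromosomes: the density was 65.0 ± 0.765 on X and 81.8 ± 0.203 on the autosomal arms (SD, n = 3). It was lower on X in 3 of 3 replicates, with an exact two-sided paired permutation p of 0.25, the smallest that 3 replicates allow. Male embryos have a single X, so the chromatin held fewer copies of X than of an autosome, and fewer copies and less binding per copy cannot be told apart in these lists.

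Gene density was also lower on X. X held 93.3 protein-coding genes per Mb and the autosomal arms 105, a ratio of 0.886, and the peaks per protein-coding gene were 0.702 on X and 0.772 on the autosomal arms, a ratio of 0.910. X peaks were also somewhat narrower, with a median width of 409 bp on X and 444 bp on the autosomal arms, and covered 2.48% of X against 3.21% of the 3 arms. Another summit lay within 1 kb of 530 X summits (34.4%) and of 2565 autosomal summits (37.7%), a lower share on X (two-sided Fisher's exact p = 0.015). Summits in a pair count each other, so the units of this test are not independent. The part of the lower peak density on X in this difference was not tested. The median GC content at summits was 41.8% on X and 41.8% on the autosomal arms.

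The strongest peaks were the rarest on X. None of the 25 peaks of highest signal value in the IDR list lay on X, while 21 lay on 2L, 3L or 3R. The signal value is the authors' own score per peak. Its scale is not shared by the lists, so peaks were ranked and set side by side only within a list. Among the top 100 peaks, 4 were on X (0.259% of X peaks) and 78 on the autosomal arms (1.15%). Among the top 1000, 113 were on X (7.33%, 95% Clopper-Pearson interval 6.08 to 8.74%) and 691 on the autosomal arms (10.2%, 9.45 to 10.9%), with a two-sided Fisher's exact p of 5.7e-04. The share on X was 0.768, 0.711 and 0.695 times the autosomal share in replicates 1, 2 and 3. Such intervals and Fisher tests treat neighbouring peaks as independent and cover counting error only, and the sequencing depth behind the lists is unknown.

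The highest signal value on X was 5755, in Tlk, and that on the autosomal arms was 74235. Medians were closer, at 525 on X and 563 on the autosomal arms, a ratio of 0.933. The median ratio was 0.954, 0.907 and 0.934 in replicates 1, 2 and 3 (0.932 ± 0.0235, SD, n = 3). The 90th percentile was 1294 on X and 1526 on the autosomal arms, and the 99th was 3081 on X and 4279 on the autosomal arms, so the distributions lay further apart towards their upper ends.

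The relative density on X was higher at each step down the full list of 30000 pooled peaks. It was 0.581 times the autosomal density for ranks 1 to 1000, 0.724 for ranks 1001 to 3000 and 0.860 for ranks 3001 to 10553. Below the IDR list it was 0.982 for ranks 10554 to 20000 and 1.10 for ranks 20001 to 30000. The replicate lists, ranked separately, gave 0.576 ± 0.0308 for the first range and 1.07 ± 0.0404 for the last (SD, n = 3), and no replicate's ratio in the first range reached any in the last. X held 14.1% of the peaks on the 4 arms in the first range and 23.6% in the last (two-sided Fisher's exact p = 1.4e-10, a contrast chosen after the values were seen). The part of X copy number in this gradient was not tested.

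**Figure D1:**
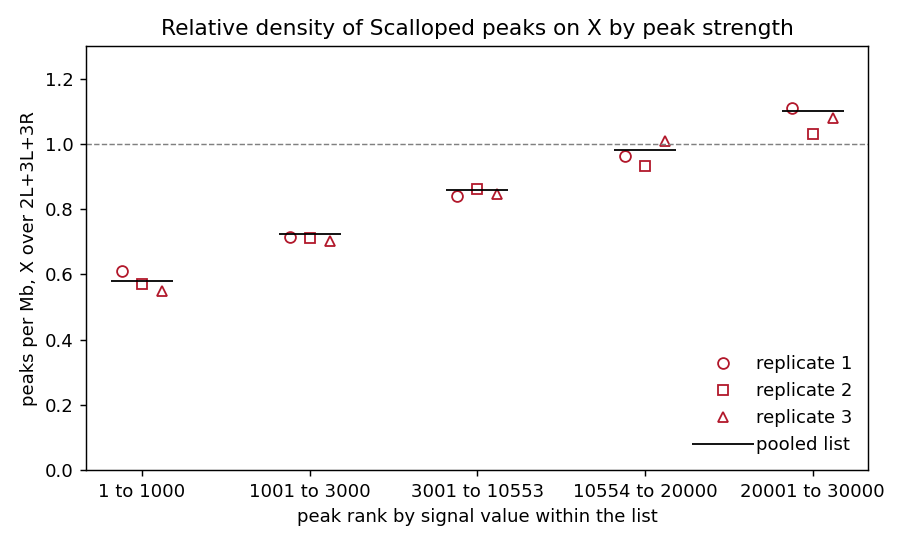
Peaks per Mb on X over peaks per Mb on 2L, 3L and 3R (vertical axis) for 5 ranges of peak rank by signal value (horizontal axis), with open symbols for the 3 replicate lists and black bars for the pooled list. The pooled ratio is 0.581 in the strongest range and 1.10 in the weakest, and each replicate lies near the pooled value.

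Although fewer, X peaks were found in the replicates at about the same rate as autosomal peaks. A summit within 100 bp was present in all 3 replicate lists for 1410 X peaks (91.4%, 89.9 to 92.8%) and for 6220 autosomal peaks (91.4%), with a two-sided Fisher's exact p of 1. On X, 114 peaks were matched in 2 lists, 17 in 1 list and 1 peak in none.

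X summits lay mostly in introns and at transcription start sites (TSSs), and seldom between genes. Within 500 bp of a TSS were 570 X summits (37.0%, 34.6 to 39.4%) and 2544 autosomal summits (37.4%, 36.2 to 38.5%), a difference that did not pass (Fisher's exact, adjusted p = 0.79). Introns held 775 X summits (50.3%, 47.7 to 52.8%) and 3070 autosomal summits (45.1%, 43.9 to 46.3%), a higher share on X (Fisher's exact, adjusted p = 9.2e-04). Intergenic sequence held 132 X summits (8.56%, 7.21 to 10.1%) and 965 autosomal summits (14.2%, 13.4 to 15.0%), a lower share on X (Fisher's exact, adjusted p = 6.6e-09). The 3' UTR class was small, with 33 X summits (2.14%) and 75 autosomal summits (1.10%), and its share was higher on X (Fisher's exact, adjusted p = 0.0057). These are two-sided Fisher's exact tests with Benjamini-Hochberg adjustment over 7 classes, and the 5' UTR, coding and other-exon classes did not pass. With TSSs of protein-coding genes alone, other exons passed too, with a lower share on X (ratio 0.478, Fisher's exact adjusted p = 0.0036). Against 3R alone none of the classes passed: the Fisher's exact adjusted p was 0.25 for introns, 0.14 for intergenic sequence and 0.14 for 3' UTRs. Among peaks above the median signal value, introns (0.85) and intergenic sequence (0.11) did not pass either.

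The replicates carried the same contrasts. The intergenic share of the 10553 strongest peaks was 8.32 ± 0.612% on X and 13.7 ± 0.330% on the autosomal arms (SD, n = 3 replicates), and the 3' UTR share was 2.18 ± 0.160% on X and 1.01 ± 0.0880% on the autosomal arms. The intron share was 48.9 ± 2.07% on X and 44.4 ± 2.54% on the autosomal arms, and within replicates 1, 2 and 3 the X share was 1.09, 1.12 and 1.10 times the autosomal share.

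The make-up of the chromosomes differed in the same directions. Introns take 43.3% of X and 39.2% of the autosomal arms, so that the peak share exceeded the sequence share by 1.16 times on X and 1.15 times on the autosomal arms. The 3' UTRs take 5.92% of X and 4.11% of the autosomal arms. Their peak share was 0.362 times the sequence share on X and 0.268 times on the autosomal arms. They held 23.7 summits per Mb of that class on X and 21.8 on the autosomal arms. This ratio of 1.09 was the highest of the 7 classes. Intergenic sequence takes 22.6% of X and 28.0% of the autosomal arms, but held 24.9 summits per Mb of that class on X and 41.1 on the autosomal arms, a ratio of 0.604, the lowest of the 7 classes. For comparison, the same ratio was 0.857 at TSSs and 0.811 in introns.

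**Figure D2:**
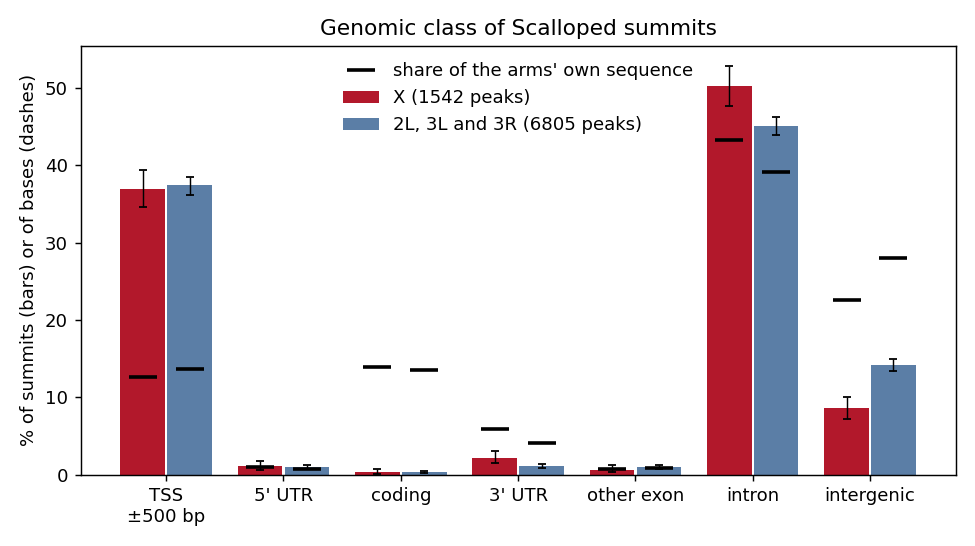
Share of summits in each genomic class on X (red, 1542 peaks) and on 2L, 3L and 3R (blue, 6805 peaks), with 95% Clopper-Pearson intervals, and black dashes for the share of bases that the class takes on the same arms. Introns hold 50.3% of X summits and 45.1% of autosomal summits, and intergenic sequence 8.56% of X summits and 14.2% of autosomal summits.

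The TEAD core was at nearly the same share of X summits and autosomal summits. CATTCC on either strand, in a window of 201 bp centred on each summit, was present at 308 X summits (20.0%, 18.0 to 22.1%) and 1350 autosomal summits (19.8%, 18.9 to 20.8%), with an adjusted Fisher p of 0.92 over 13 motifs. Flanks of the same length, 1000 to 1200 bp away, held it in 9.18% of 2299 X windows and 8.49% of 9826 autosomal windows. The summit share was thus 2.18 times the flank share on X and 2.34 times on the autosomal arms. In each replicate's top peaks the core was at 19.3 ± 1.18% of X summits and 19.2 ± 0.973% of autosomal summits (SD, n = 3). CTACTC, a permutation of the same letters, was at 3.44% of X summits and 3.72% of autosomal summits, close to its flanks at 4.18% on X and 4.37% on the autosomal arms.

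The core was most frequent in the strongest X peaks. In 5 equal parts of the IDR list by signal value, in order of falling strength, it was at 34.3, 16.4, 21.2, 12.9 and 17.8% of X summits, against 28.0, 20.1, 18.2, 15.8 and 16.5% of autosomal summits. At TSSs it was at 16.8% of X summits and 15.8% of autosomal summits, and elsewhere at 21.8% of X summits and 22.2% of autosomal summits. Of the 100 strongest X peaks 43 had the core, against 20.0% of all X peaks. The core or AATTCC was at 60 of these 100 and at 37.3% of all X peaks. The 100 strongest autosomal peaks were not counted in this way. The variant AATTCC alone was at 21.5% of X summits and 23.5% of autosomal summits (Fisher's exact, adjusted p = 0.25).

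Simple repeats were more frequent at X summits. CACACACA was at 187 X summits (12.1%, 10.5 to 13.9%) and 575 autosomal summits (8.45%, 7.80 to 9.14%), with an adjusted p of 1.6e-04. GAGAGAGA was at 83 X summits (5.38%, 4.31 to 6.63%) and 234 autosomal summits (3.44%, 3.02 to 3.90%), with an adjusted p of 0.0031. The shorter GAGAG, which every GAGAGAGA contains and which the GAGA factor recognises, was at 32.7% of X summits and 28.3% of autosomal summits (Fisher's exact, adjusted p = 0.0031). Among peaks above the median signal value none of the 3 repeats passed (Fisher's exact adjusted p = 0.23 each). With a window of 50 bp around the summit, CACACACA and GAGAG did not pass (Fisher's exact adjusted p = 0.2 each). GAGAG also did not pass with the top peaks of replicate 1 (Fisher's exact adjusted p = 0.086) or replicate 3 (0.11), or against 3L alone (0.067). GAGAGAGA did not pass against 3R alone (Fisher's exact adjusted p = 0.2). The flanks leaned the same way: CACACACA was in 4.57% of X flanks and 3.66% of autosomal flanks, and GAGAGAGA in 1.39% of X flanks and 1.15% of autosomal flanks. A logistic model of summit against flank and of X against autosomes gave no interaction past the threshold for any of the 13 motifs. The adjusted interaction p was 0.77 for CACACACA and for GAGAGAGA, so these data do not show that the gain at summits over flanks differs between X and the autosomes.

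Sequences known from core promoters were at few summits, but were rarer still in flanks. TATCGATA, bound by DREF and BEAF-32, was at 2.53% of X summits and 1.88% of autosomal summits. Its flank share was 0.565% on X and 0.448% on the autosomal arms. GGTCACACT, known as motif 1, was at 1.56% of X summits and 1.34% of autosomal summits. Its flank share was 0.304% on X and 0.163% on the autosomal arms. On X the summit share was 4.47 times the flank share for TATCGATA and 5.11 times for GGTCACACT, against 2.18 times for CATTCC. At TSSs TATCGATA was at 5.61% of X summits, and elsewhere at 0.720%. Neither difference between X and autosomal summits passed the test. The same held for the palindrome AACCGGTT and for sites of other factor families: TGAGTCA of AP-1 proteins, CAGGTA of Zelda, TAATTA of homeodomain proteins and AGATAA of GATA factors. With a window of 150 bp around the summit, TAATTA passed, with a lower share on X (ratio 0.834, Fisher's exact adjusted p = 0.023).

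**Figure D3:**
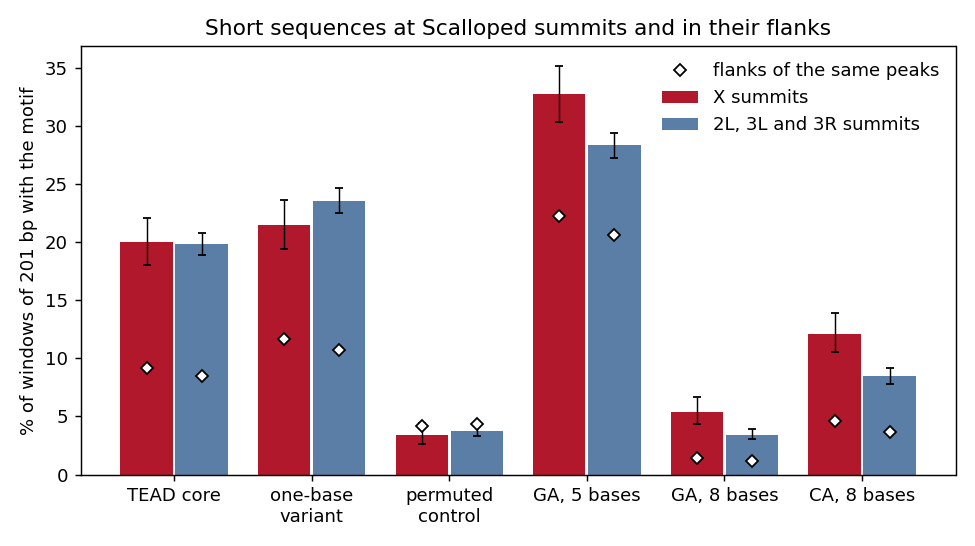
Share of windows of 201 bp that hold a short sequence at summits on X (red bars) and on 2L, 3L and 3R (blue bars), with 95% Clopper-Pearson intervals, and white diamonds for flanks of the same peaks. The TEAD core is CATTCC, the variant AATTCC and the permuted control CTACTC. The core stands at 20.0% on X and 19.8% on the autosomal arms, while the CA repeat stands at 12.1% on X and 8.45% on the autosomal arms.

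The strongest X locus was Tlk, the gene of Tousled-like kinase, a nuclear kinase of chromatin assembly. Its main summit, at 3742863 in an intron (interval 3740652 to 3744974), ranked 34 in the IDR list and 33, 74 and 33 in replicates 1, 2 and 3. Its signal value was 10.5, 8.41 and 10.2 times the median of the top peaks in those replicates. The gene with the 1000 bp around its TSSs held 20 summits.

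After Tlk came Ugalt, the Golgi transporter of UDP-galactose, with a summit at 2703891, 39 bp upstream of its TSS (rank 73; 66, 92 and 78 in replicates 1, 2 and 3). The peak 305 bp upstream of CG45060 ranked 81 (62, 135 and 84), and a summit at 12751350 in an exon of lncRNA:Vinr, a noncoding gene, ranked 104 (129, 64 and 137). The next lay at 17880437 in an intron of mnb and ranked 105 (115, 90 and 114). mnb encodes the kinase Minibrain, known to promote Yorkie activity, and the nearest TSS was that of CG12985. A summit at 13624709, 36 bp upstream of NFAT, which encodes a transcription factor of the NFAT family, ranked 107 (176, 62 and 112) and had 1 core.

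The remaining strongest loci were of mixed function, some of them genes of central metabolism, of the cytoskeleton or of cell junctions. Not all are named here, chas (rank 130) among those left out. No share of such genes among all X genes was computed. A summit in an intron of Zw, which encodes glucose-6-phosphate dehydrogenase, ranked 142, and a summit 149 bp upstream of Gapdh2, which encodes a glycolytic enzyme, ranked 144. Neither had the core. With 1 core each, peaks ranked 147 in pot, which encodes an apical matrix protein of the epidermis, 181 at Tomosyn, an inhibitor of vesicle release, 199 in Myo10A, an unconventional myosin, and 231 at pod1, a coronin that binds actin and microtubules. The peak 45 bp upstream of Pp2B-14D, a catalytic subunit of calcineurin, had 2 cores and ranked 289 in the IDR list but 516, 142 and 323 in replicates 1, 2 and 3. The β-catenin gene arm had a summit 226 bp upstream of a TSS at rank 308 (283, 398 and 293), and the septate junction scaffold gene dlg1 an intronic summit at rank 330 (476, 188 and 377).

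Across the 25 genes taken by their strongest X peak, ranks ran from 34 to 334, and 12 summits were intronic, 9 at a TSS, 2 in other exons, 1 in a 3' UTR and 1 intergenic. All 25 were present in the 3 replicates, with 516 as the worst rank in any of them. The core was at 11 of the 25 (44.0%), against 20.0% of all X summits.

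**Figure D4:**
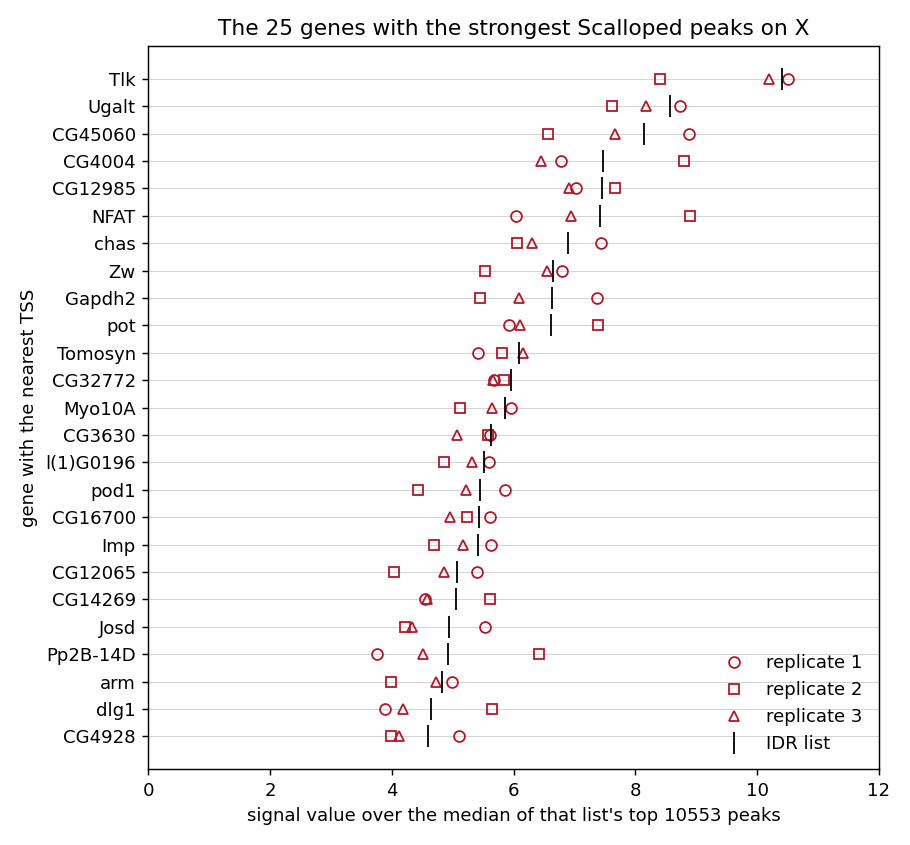
Signal value over the median of the list's 10553 strongest peaks (horizontal axis) for the 25 genes with the strongest X peaks, named by the nearest protein-coding TSS, with open symbols for replicates 1, 2 and 3 and a black tick for the IDR list. Tlk stands at 8.41 to 10.5 times the median in the replicates, and Pp2B-14D spans 3.75 to 6.41.

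Of the 2196 protein-coding genes on X, 619 (28.2%, 26.3 to 30.1%) had a summit at most 1000 bp from a TSS, as had 2672 of 8817 (30.3%, 29.3 to 31.3%) on the autosomal arms, and 29.9% on all 4 arms. The difference did not pass (two-sided Fisher's exact p = 0.054), but did with the top peaks of replicate 2 (p = 0.0052) and replicate 3 (p = 0.011). With summits inside the gene added, 722 X genes (32.9%) and 2958 autosomal genes (33.5%) had a summit, and 33.4% on all 4 arms (Fisher's exact p = 0.56). Among noncoding genes, 102 of 483 genes annotated as ncRNA on X had a summit (21.1%), and 0 of 24 transfer RNA genes. The shares of these gene types on the autosomal arms were not computed, so the counts show no difference between X and the autosomes.

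For dosage compensation, the locus of roX2 had a strong peak and that of roX1 had none in the IDR list. The roX2 summit, at 11579021, lay 44 bp upstream of the roX2 TSS and ranked 407 in the IDR list and 418, 394 and 436 in replicates 1, 2 and 3. At roX1 the pooled list held 1 peak, at rank 15428. Sxl, the sex-determining switch that keeps the complex off in females, had 4 summits, the best at rank 4375 (4052, 5213 and 4810), and mof had none. None of these summits held the TEAD core.

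In the Hippo pathway, 2 of 6 X genes had an IDR summit inside the gene or up to 1000 bp from a TSS: mnb, with 4 summits, and scalloped (sd), with 9. The best sd summit, at 15816991 in an intron, ranked 530 (443, 1030 and 467), and 3 of the 9 had the TEAD core. A share of 2 in 6 is near the 33.4% of all genes. Tagged sd was introduced as a transgene in these flies, and the part of any extra copies of sd sequence in this signal was not tested. Mer, Sik2, Tao and jub had no IDR summit.

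Most members of the other signalling groups of X had a summit, against 33.4% of all protein-coding genes on the 4 arms. These groups hold only 3 or 4 genes each and were not tested. Of 3 BMP genes, all had a summit: sog, a secreted BMP inhibitor, at rank 947, brk, a repressor of BMP targets, at 2631, and bi, a T-box factor switched on by BMP signalling, at 6043. Of 4 EGF receptor and Ras genes, Raf, the MAP kinase kinase kinase, held 15 summits with a best rank of 583 (450, 731 and 670), csw, a phosphatase, ranked 3368, and Dsor1, the kinase below Raf, ranked 8330, while sev had none. Of 4 Wingless genes, arm ranked 308, sgg, the GSK3 kinase, held 11 summits with a best rank of 529 (467, 797 and 528), and dsh ranked 2194, while por had none. In the JAK-STAT pathway, the ligand genes upd3 and upd2 ranked 1009 and 2801 and the kinase gene hop ranked 1902, while upd1 had none. The hop summit lay 230 bp from a hop TSS and nearer, at 117 bp, to that of its neighbour Tim8. In the Notch pathway, the receptor gene N held 6 summits with a best rank of 3031, amx shared its summit with Dsor1, and dx had none.

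All 8 cell polarity and junction genes and all 8 genes listed under muscle on X had a summit, against 33.4% of all protein-coding genes on the 4 arms. The polarity genes were led by dlg1, by sdt, which encodes the Crumbs partner Stardust (rank 477; 490, 618 and 439), by Moe, which encodes Moesin (478; 403, 876 and 427), and by baz, the fly Par3 gene (2653). The genes listed under muscle were led by sqh, which encodes the regulatory light chain of nonmuscle myosin (485; 569, 445 and 490). Next were kirre, which encodes a myoblast recognition receptor (2174), if, an integrin gene (2630), and Act5C, a cytoplasmic actin gene (2699). Neither sqh nor Act5C is particular to muscle. The sqh summit at rank 485 lay inside the neighbouring gene dtn, 29 bp from the dtn TSS and 536 bp from the nearest sqh TSS. A summit 136 bp from a sqh TSS ranked 1440. The best kirre summit lay in kirre but within 500 bp of a TSS of another gene, Syx4. Many of these genes are long, so the counts are not set against gene length here.

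In most other groups not all members had a summit, and the share of all protein-coding genes on the 4 arms was 33.4%. The groups are small and were not tested against that share. All 5 proneural and neuroblast genes (ac, sc, l(1)sc, ase and vnd) and all 5 eye pigment genes (w, v, g, car and rb) had no IDR summit. Of 8 neuronal genes 4 had one, with the best at elav, which encodes an RNA-binding protein of neurons (rank 635; 781, 674 and 581), Nrg, a cell adhesion gene (887), Sh, a potassium channel gene (2049), and fne (9149). Of 10 patterning genes 6 had one, the best being oc (3863), disco-r (5084), run (5403) and btd (5622). Among 6 growth and cell cycle genes, dlg1, Myc, with 7 summits and a best rank of 482 (605, 342 and 521), and fzr, an activator of protein degradation in the cell cycle (3365), had a summit. Of 6 epidermal genes sn (3696), ovo (8457) and m (9043) had one, and both ecdysone genes did, br at 6169 and usp at 10133.

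Ribosomal protein genes were at 7 of 14, the best being RpS28b (3119), RpS14b (3832), RpS5a (4250) and RpL22 (4486). The RpS28b, RpS14b and RpS5a summits lay 775, 756 and 840 bp from the TSS of the gene and nearer the TSS of a neighbouring gene, and that of RpS5a was matched in replicate 1 alone. RpS14a and RpS14b are near-identical neighbouring copies, so reads in their bodies are uncertain. Over the 17 groups, 57 of 98 genes had a summit (58.2%), against 33.4% of all protein-coding genes on the 4 arms. The groups were put together from well-studied genes and with earlier results of these data known, so this share describes them and is no test.

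Summits were unevenly spread along X. The bin from 5 to 10% of the arm's length, counted from its distal end, held 120 peaks per Mb (120 ± 7.09 in the replicates, SD, n = 3), and the bin from 25 to 30% held 103 (102 ± 2.65). The last 3 bins, from 85% to the centromeric end, held 25.5, 7.65 and 11.0 peaks per Mb. Protein-coding genes stood at 128 per Mb in the first of these bins, 113 in the second and 81.6, 50.1 and 32.3 in the last 3, so peaks thinned out more than genes did near the centromere. Peaks were also few for the genes present at the distal end. The bin from 0 to 5% held 37.4 peaks per Mb (38.2 ± 2.23 in the replicates, SD, n = 3) and 85.8 protein-coding genes per Mb.

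The windows of 100 kb with most summits on X lay, with 1 exception, in its distal 4 Mb. The window from 2100001 to 2200000 held 25 summits (26, 23 and 26 in replicates 1, 2 and 3) and includes ph-p and ph-d, the duplicated Polycomb-group genes polyhomeotic. The windows from 1200001, around Atf3, a bZIP factor gene, and from 3700001, around Tlk, held 24 each. Those from 1900001, around Hr4, a nuclear receptor gene, and from 3400001, around CG12535, held 21 each, as did the exception, from 13200001, around HDAC4, a histone deacetylase gene, and mew, an integrin gene. Over 20 summits were found in 6 of 236 X windows (2.54%) and in 56 of 839 autosomal windows (6.67%), and the most in 1 window was 25 on X and 46 on the autosomal arms. The protein-coding genes with most summits were chosen after their values were seen. They were kirre (23 over 394 kb), CG1677 (21 over 125 kb), Tlk (20 over 69.8 kb) and Hr4 (19 over 66.0 kb). The noncoding gene lncRNA:CR44999 held more, 30 over 150 kb, and lncRNA:CR44357 held 21 over 239 kb. Both overlap protein-coding genes and share summits with them.

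**Figure D5:**
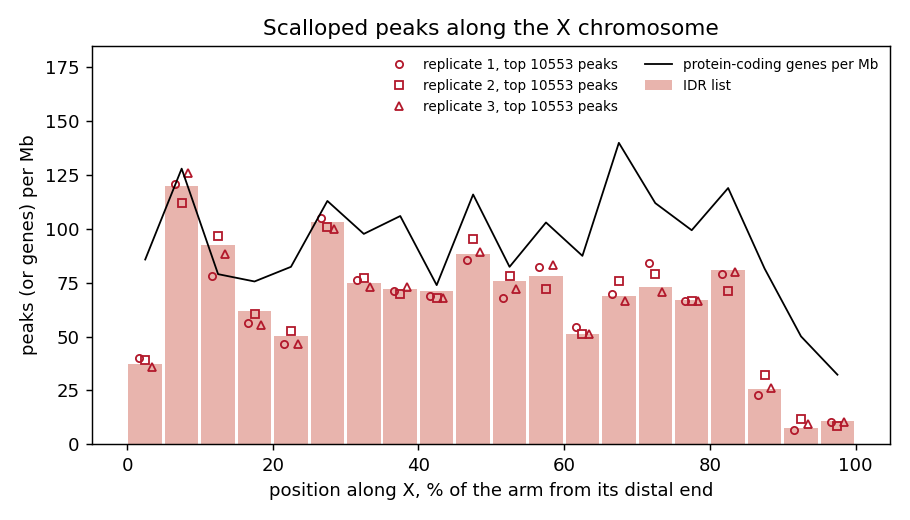
Peaks per Mb in 20 bins of equal length along X (horizontal axis, % of the arm from its distal end), as bars for the IDR list and open symbols for the top 10553 peaks of each replicate, with a black line for protein-coding genes per Mb. The highest bar is 120 per Mb in the bin from 5 to 10%, and the last 3 bars are at 25.5, 7.65 and 11.0 per Mb.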

How the data were processed

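Peak lists on dm6 of 3 biological replicates, of the pooled replicates and of the IDR threshold were used as deposited. Per the file headers, the peaks come from dm6 alignments and a control alignment; aligner, peak caller and IDR threshold are not given in the sources used here. A signal value accompanies every peak, a score that the authors' caller set on a scale of its own in each list. The deposited −log10 q value was at its ceiling throughout the IDR list and ordered nothing. The replicate lists and the pooled list held 30000 peaks each, so a list's length says nothing about depth, and the files gave no read totals, so depth is unknown. The IDR list was the top 10553 of the pooled list by signal value.

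Summits were the peak start plus the offset in the file, given 1-based. The Ensembl 115 annotation (BDGP6.54, same coordinates as dm6) gave the genes. Classes were assigned in this order: within 500 bp of a TSS, 5' UTR, coding, 3' UTR, other exon, intron, intergenic. Summits of different lists matched within 100 bp. Motif flanks within 500 bp of another IDR summit were left out. Other arms were not analysed here. X was compared with 2L, 3L and 3R by two-sided Fisher's exact tests (SciPy), adjusted by the Benjamini-Hochberg method over 7 classes or 13 motifs, with a threshold of 0.05 and 95% Clopper-Pearson intervals, and densities by an exact paired permutation test over replicates. The motif scan and the class test were tested on simulated data.

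Named genes were those with the 25 strongest X peaks, 1 peak per nearest protein-coding gene, up to 4 members of each of 17 gene groups by rank, the dosage compensation genes and the 5 densest windows with ties. Group members without a summit were to be counted only, and those named were added after their values were seen. The members and groups were chosen with earlier results of these data known. Replicates are separate biosamples per the labels. Alternatives were the stronger peaks by signal value, each replicate's list, each replicate left out, each arm alone, and other windows and distances. Software was scipy 1.17.1 and statsmodels 0.14.6 for tests, pandas 2.3.3 and numpy 2.4.6 for tables and matplotlib 3.10.9 for figures, under Python 3.11.15.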

Additional observations from a re-analysis of the deposited data

How the results depend on the processing

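No result past its threshold changed direction under the alternatives run. The X to autosome density ratio of 0.806 was 0.729 among IDR peaks above the median signal value, 0.793 with the list of replicate 1, 0.789 with that of replicate 3, 0.792 against 2L, 0.782 against 3L and 0.838 against 3R, 0.818 with separate intervals, 0.844 with 2 Mb trimmed from each arm end, and 0.802 to 0.809 with a replicate left out. The median signal ratio of 0.933 was 0.907 in replicate 2. The lower X share of the strongest peaks passed in 12 of 12 alternatives, the top 500 and top 2000 among them, with ratios of 0.672 to 0.798.

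The count of 3 classes that differed dropped to 1 among peaks above the median signal value (3' UTR; Fisher's exact adjusted p = 0.85 for introns and 0.11 for intergenic sequence) and to 0 against 3R alone, and was 4 with protein-coding TSSs only. The count of 3 motifs dropped to 0 among peaks above the median signal value, where the Fisher's exact adjusted p was 0.23 for CACACACA, GAGAGAGA and GAGAG, and to 1 with a motif window of 50 bp. It was 2 with the list of replicate 1 or 3 and against 3L or 3R alone, and 4 with a window of 150 bp, where TAATTA passed. The CATTCC share did not pass in 12 of 12 alternatives, with X over autosome ratios of 0.949 to 1.06.

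The ratio of genes with a TSS summit, 0.930 with Fisher's exact p = 0.054, passed at 0.847 (p = 9.6e-04) among peaks above the median signal value, 0.911 (0.0052) and 0.909 (0.011) in replicates 2 and 3, 0.879 (0.0034) against 3L and 0.909 (0.024) within 500 bp of a TSS. Leaving out replicates gave 0.925 to 0.946, and without replicate 1 it passed (Fisher's exact p = 0.042). The cause of these changes was not tested. No paired analysis was possible because all 3 samples form 1 group, except that X and autosomal density were paired within replicates. Without read totals, weak peaks near the end of a list cannot be told from absent ones.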
